A study of Mus musculus with 22 samples.

Results

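Get1, Tmem50b, Vps26c, Dop1b, C2cd2, Ttc3, Psmg1 and Hunk are 8 genes of the chromosome 16 segment that Ts1Cje mice carry in 3 copies, and they have in common known or probable roles in membrane trafficking, protein turnover or kinase signalling. They were taken by name from the array features, each identified by an Entrez gene number, and all 8 were found among 21225 features, of which 20239 carried 1 gene symbol and entered the tests. In the Ts1Cje mouse, used to model Down syndrome, the distal part of chromosome 16, below Sod1, is present as an extra copy joined to chromosome 12. Cerebral cortex and hippocampus came from 6 Ts1Cje females and 5 wild-type (WT) females that were their littermates, aged 8 to 10 weeks, from a line whose Ts1Cje males had been crossed back to C57Bl/6J. By the animal numbers in the sample titles, every animal gave both regions. The 22 Affymetrix mouse gene 1.0 ST arrays thus form 4 groups: 6 Ts1Cje and 5 WT cortices, and 6 Ts1Cje and 5 WT hippocampi. The extra segment is carried in every cell and holds many other genes besides these 8.

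Get1 is a receptor of the endoplasmic reticulum that, with its partner Camlg, takes tail-anchored proteins from the cytosolic ATPase Get3 and inserts them into the membrane. Vps26c is a subunit of the retriever complex, which returns receptors from endosomes to the cell surface, and Dop1b belongs to the Dopey family, large proteins that work with Mon2 at the Golgi and endosomes. Psmg1 pairs with Psmg2 to assemble the proteasome, Ttc3 is a ubiquitin ligase that acts on phosphorylated Akt, and Hunk is a kinase related to AMPK. Tmem50b is a membrane protein of the endoplasmic reticulum and Golgi, and C2cd2 carries a lipid-binding C2 domain and resembles C2cd2l, which moves lipids where the endoplasmic reticulum meets the plasma membrane.

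RefSeq (GRCm38.p6) holds a promoter window of 300 bases, from 250 before to 50 after the annotated start, for all 8 genes. The windows of Get1, Vps26c and Dop1b are shown because these genes passed the test between genotypes in hippocampus, and that of Hunk because it differed most between the regions. Capitals mark matches on either strand to 6 short motifs, none of which contains another. The core letters bound by the factor NRF1 were searched as TGCGCA and those bound by ETS factors as CCGGAAG. The GC box, a site of Sp1, was searched as GGGCGG, and the site of factor NF-Y as CCAAT. The E-box was searched as CACGTG, and the TATA box, where the basal machinery binds, as TATAAA.
Get1, chr16:96145150-96145449, plus strand: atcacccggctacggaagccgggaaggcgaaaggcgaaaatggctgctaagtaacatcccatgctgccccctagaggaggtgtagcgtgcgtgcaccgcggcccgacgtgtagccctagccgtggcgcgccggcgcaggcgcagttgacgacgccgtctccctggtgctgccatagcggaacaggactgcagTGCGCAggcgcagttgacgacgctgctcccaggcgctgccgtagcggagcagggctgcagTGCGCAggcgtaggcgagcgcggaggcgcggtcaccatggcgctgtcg
Vps26c, chr16:94526580-94526879, minus strand: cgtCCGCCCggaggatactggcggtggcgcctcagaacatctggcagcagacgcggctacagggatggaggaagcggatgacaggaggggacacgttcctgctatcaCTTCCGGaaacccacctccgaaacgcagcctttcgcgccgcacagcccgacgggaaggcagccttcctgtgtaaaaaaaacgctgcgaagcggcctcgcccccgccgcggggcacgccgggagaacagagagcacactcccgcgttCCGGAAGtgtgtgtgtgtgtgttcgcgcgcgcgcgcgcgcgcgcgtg
Dop1b, chr16:93711657-93711956, plus strand, the first of its 2 windows: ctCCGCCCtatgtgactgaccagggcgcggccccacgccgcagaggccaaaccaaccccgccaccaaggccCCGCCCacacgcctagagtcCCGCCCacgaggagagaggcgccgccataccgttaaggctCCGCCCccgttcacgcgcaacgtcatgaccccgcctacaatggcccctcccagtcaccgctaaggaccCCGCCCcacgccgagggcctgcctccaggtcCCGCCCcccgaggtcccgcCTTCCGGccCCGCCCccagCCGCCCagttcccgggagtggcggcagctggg
Hunk, chr16:90386147-90386446, plus strand: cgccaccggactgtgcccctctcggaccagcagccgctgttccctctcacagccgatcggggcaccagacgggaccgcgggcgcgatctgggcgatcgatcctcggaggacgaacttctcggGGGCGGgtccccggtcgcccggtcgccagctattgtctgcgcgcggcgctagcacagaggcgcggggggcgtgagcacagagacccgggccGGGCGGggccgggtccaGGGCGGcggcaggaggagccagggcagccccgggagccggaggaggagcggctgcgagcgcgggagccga

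All 8 windows were rich in G and C, at 64.3% to 75.7%, where the median of 32851 RefSeq windows of this length was 52.7%, and none held TATAAA, which 13.6% of all windows held. The windows shown held 2 NRF1 matches in Get1, 2 ETS matches and 1 GC box in Vps26c, 1 ETS match and 8 GC boxes in Dop1b, and 3 GC boxes in Hunk. No motif was common to all 8: the GC box was found in 6 of 8 (35.7% of all windows), the NRF1 letters in 3 of 8 (7.76%), the ETS letters in 3 of 8 (8.86%), CCAAT in 2 of 8 (37.4%) and CACGTG in 1 of 8 (7.15%). These matches describe letters only, and binding was not measured here.

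The arrays of animals 60 (WT) and 64 (Ts1Cje) stood apart from the rest in both regions. The SD of log2 signal over all features was 1.95 for animal 64 and 1.86 for animal 60 in cortex, against 2.17 to 2.22 on the other 9 arrays, and 1.98 and 2.06 in hippocampus, against 2.14 to 2.19. Tests of the 8 genes and the medians of lists are therefore given with these 2 animals and, where stated, without them. The region labels held against their markers: Prox1, Zbtb20 and Grik4, which mark hippocampal neurons, were 1.79, 1.34 and 1.27 log2 units higher in hippocampus, and the cortical markers Tbr1, Cux2 and Rorb differed by -0.99, -1.20 and -1.22.

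All 8 genes gave more signal in Ts1Cje than in WT in both regions, by 1.25 to 1.48 times in cortex and 1.22 to 1.39 times in hippocampus. Values are log2 signals, those of WT are listed for animals 60, 62, 65, 95 and 98 in that order, differences are Ts1Cje minus WT, and a gene was called where its p, adjusted over all 20239 genes, was under 0.05 in limma. In hippocampus Vps26c, Dop1b and Get1 rose, 3 of 8 where 0.104% of all genes were called higher, and without animals 60 and 64 the count was 6 of 8 (background 0.153%). In cortex 0 of 8 were called (background 0.00494%, a single gene). All 8 were nonetheless higher at an unadjusted p under 0.05 in limma, where 0.889% of all genes were higher at that level. Without animals 60 and 64, 3 of 8 were called in cortex (background 0.148%). A fit of all 22 arrays with the animal as a block called 5 of 8 in cortex, and 6 of 8 without that block (background 0.104% in each). In hippocampus that fit called 4 of 8 with the block (background 0.0791%) and 3 of 8 without it (background 0.0741%). The groups did not overlap for 7 of 8 genes in cortex, where 0.232% of all genes had every Ts1Cje array above every WT array, and for 8 of 8 in hippocampus (background 0.38%). In tissue of many cell types, more cells that express a gene cannot be told apart from more RNA per cell.

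**Figure D1:**
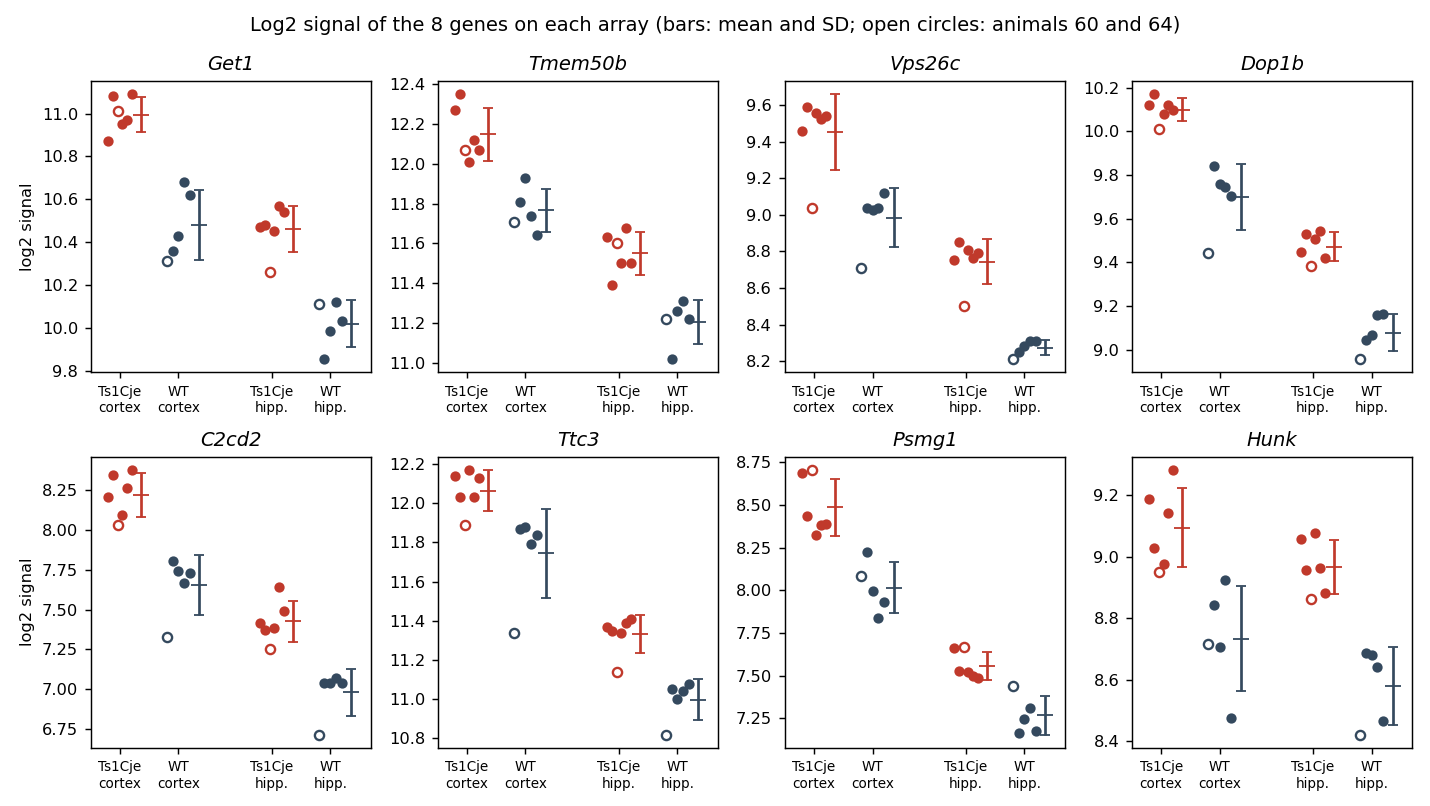
Log2 signal of each of the 8 genes (vertical axis, each panel on its own range) on the 22 arrays, with Ts1Cje left of WT in each region; points are arrays, open circles are animals 64 (Ts1Cje) and 60 (WT), and bars are the mean and SD of 6 Ts1Cje or 5 WT arrays. The clouds are apart in every panel except for Vps26c in cortex, where the open Ts1Cje circle at 9.04 lies among the WT points.

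Among the genes of the endoplasmic reticulum, Get1 read 10.87 at the lowest, 10.99 at the median and 11.09 at the highest in Ts1Cje cortex, against 10.31, 10.36, 10.43, 10.68 and 10.62 in WT cortex. Every Ts1Cje cortex was above every WT cortex, with 0.19 log2 units between the nearest arrays. The difference was 0.52 ± 0.0813 (SE, n = 6 and 5), or 1.43 times, and did not pass the test by limma (adjusted p = 0.188), nor without animals 60 and 64 (0.47, adjusted p = 0.0513), while the fit with the animal block gave an adjusted p of 0.00413. In hippocampus Get1 ran through 10.26, 10.48 and 10.57 in Ts1Cje (lowest, median, highest), against 10.11, 9.85, 9.98, 10.12 and 10.03 in WT. The groups were again apart, animal 64 being the lowest of the Ts1Cje hippocampi. Get1 rose there by 0.44 ± 0.0681, 1.36 times (adjusted p = 0.0395, 0.00635 without animals 60 and 64, and 0.0167 with the animal block).

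Tmem50b in Ts1Cje cortex read 12.01, 12.10 and 12.35 (lowest, median, highest), against 11.71, 11.81, 11.93, 11.74 and 11.64 in WT cortex, and in Ts1Cje hippocampus 11.39, 11.55 and 11.68, against 11.22, 11.02, 11.26, 11.31 and 11.22 in WT hippocampus. The groups were apart in both regions, by 0.08 log2 units between the nearest arrays in each. The difference was 0.38 ± 0.0798 in cortex (1.3 times, adjusted p = 0.553) and 0.34 ± 0.0668 in hippocampus (1.27 times, adjusted p = 0.154). Leaving out animals 60 and 64 left both at about the same size, 0.38 and 0.34, and short of the threshold, with adjusted p = 0.247 and 0.257, and the animal block gave 0.115 and 0.276.

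C2cd2 had the largest difference of the 8 genes in cortex. Its values were 8.03, 8.24 and 8.38 in Ts1Cje cortex (lowest, median, highest), against 7.33, 7.80, 7.74, 7.67 and 7.73 in WT cortex, where 7.33 belonged to animal 60. The groups did not overlap, and the difference of 0.57 ± 0.0982 (1.48 times) had an adjusted p of 0.313, which became 0.00607 without animals 60 and 64 (0.52 ± 0.0605) and 0.00408 with the animal block. In hippocampus C2cd2 read 7.25, 7.40 and 7.64 in Ts1Cje, against 6.71, 7.04, 7.04, 7.07 and 7.04 in WT. The groups were 0.18 log2 units apart, with 4 WT arrays at 7.04 to 7.07 and animal 60 below them. The hippocampal difference was 0.45 ± 0.0816, 1.36 times (adjusted p = 0.107, 0.0203 without animals 60 and 64, and 0.0344 with the animal block).

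Of the endosomal genes, Vps26c had 1 Ts1Cje cortex well below the other 5. In Ts1Cje cortex it read 9.04 for animal 64 and 9.46 to 9.59 for the other 5, with a median of 9.53 over all 6, against 8.71, 9.04, 9.02, 9.04 and 9.12 in WT cortex. Thus 5 of 6 Ts1Cje cortices were above all WT cortices and animal 64 lay among them, the only overlap among the 16 comparisons of a gene in a region. The cortical difference was 0.47 ± 0.111, 1.38 times (adjusted p = 0.988), and without animals 60 and 64 it was 0.48 ± 0.0408 (adjusted p = 0.00102); the animal block gave 0.0177. In hippocampus the values were 8.50, 8.78 and 8.85 in Ts1Cje (lowest, median, highest), against 8.21, 8.25, 8.28, 8.31 and 8.31 in WT, so the tightest WT group of the 8 genes (SD 0.0419) lay 0.19 log2 units below the lowest Ts1Cje array. Vps26c rose by 0.47 ± 0.0621, 1.39 times (adjusted p = 0.0209, 0.000316 without animals 60 and 64, and 0.0191 with the animal block).

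Dop1b had the smallest spread of the 8 genes among Ts1Cje cortices, with 10.01, 10.11 and 10.17 (lowest, median, highest; SD 0.0518), against 9.44, 9.84, 9.76, 9.74 and 9.70 in WT cortex. The groups were 0.17 log2 units apart, and animal 60 was the lowest WT cortex. The difference of 0.40 ± 0.0740, 1.32 times, had an adjusted p of 0.406, and of 0.00579 without animals 60 and 64 (0.36 ± 0.0405) and 0.00443 with the animal block. In hippocampus Dop1b read 9.38, 9.48 and 9.54 in Ts1Cje, against 8.96, 9.05, 9.07, 9.16 and 9.16 in WT, with 0.22 log2 units between the groups, the widest gap of the 8 genes in that region. It rose by 0.39 ± 0.0532, 1.31 times (adjusted p = 0.0214, 0.00761 without animals 60 and 64, and 0.01 with the animal block).

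Of the protein turnover genes, Ttc3 read 11.89, 12.08 and 12.17 in Ts1Cje cortex (lowest, median, highest), against 11.34, 11.87, 11.88, 11.79 and 11.84 in WT cortex. Only 0.00972 log2 units separated the groups, and WT animal 60 lay far below the other 4. The difference was 0.32 ± 0.103, 1.25 times, the smallest of the 8 in cortex (adjusted p = 1, 0.371 with the animal block, and 0.0887 without animals 60 and 64, where it was 0.26 ± 0.0445). In hippocampus it read 11.14, 11.36 and 11.41 in Ts1Cje, against 10.82, 11.05, 11, 11.04 and 11.08 in WT. The groups did not overlap, with animals 64 and 60 the lowest of their genotypes. Ttc3 differed by 0.33 ± 0.0643, 1.26 times (adjusted p = 0.147, 0.00456 without animals 60 and 64, and 0.284 with the animal block).

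Psmg1 gave 8.32, 8.41 and 8.70 in Ts1Cje cortex (lowest, median, highest), against 8.08, 8.23, 8.00, 7.84 and 7.93 in WT cortex, and here animal 64 was the highest of the Ts1Cje arrays. The groups were 0.0989 log2 units apart. The difference was 0.47 ± 0.0969, 1.39 times (adjusted p = 0.549, 0.228 without animals 60 and 64, and 0.0141 with the animal block). In hippocampus Psmg1 read 7.48, 7.52 and 7.67 in Ts1Cje, against 7.44, 7.17, 7.25, 7.31 and 7.18 in WT. Animals 64 and 60 were the highest of their genotypes, and the groups were 0.0422 log2 units apart. At 0.29 ± 0.0624, 1.22 times, it was the smallest hippocampal difference of the 8 (adjusted p = 0.304, 0.923 with the animal block, and 0.0449 without animals 60 and 64, where it was 0.31 ± 0.0481).

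The kinase gene Hunk read 8.95, 9.09 and 9.28 in Ts1Cje cortex (lowest, median, highest), against 8.71, 8.84, 8.71, 8.92 and 8.48 in WT cortex. The lowest Ts1Cje cortex was 0.0273 log2 units above the highest WT cortex, and animal 98 was the lowest of the WT cortices. The difference of 0.36 ± 0.0924, 1.29 times, had an adjusted p of 1, of 0.171 with the animal block and of 0.455 without animals 60 and 64 (0.39 ± 0.0934). In hippocampus Hunk read 8.86, 8.96 and 9.08 in Ts1Cje, against 8.42, 8.69, 8.68, 8.64 and 8.47 in WT. There the groups were 0.17 log2 units apart. The difference was 0.39 ± 0.0666, 1.31 times (adjusted p = 0.0668, 0.0581 without animals 60 and 64, and 0.115 with the animal block).

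The 3 hippocampal calls rested on all 11 animals or on leaving out animal 64. With animal 64 left out 6 of 8 genes were called (background 0.158%), Tmem50b and Psmg1 being the exceptions, whereas with any of the other 10 animals (60, 61, 62, 63, 65, 87, 94, 95, 97 or 98) left out 0 of 8 were called, and 1 to 8 of all genes. In those 10 fits the adjusted p was 0.0516 to 0.0964 for Vps26c, 0.0571 to 0.0976 for Dop1b and 0.0746 to 0.17 for Get1, while their differences stayed at 0.45 to 0.48, 0.36 to 0.41 and 0.40 to 0.47.

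An extra copy beside the usual pair would give 1.5 times the signal, 0.585 on the log2 scale, if signal followed copy number in full. The 95% interval of the difference held that value for 4 of 8 genes in cortex, namely Get1 (0.34 to 0.69), Vps26c (0.22 to 0.71), C2cd2 (0.35 to 0.78) and Psmg1 (0.26 to 0.68). In hippocampus it held it for 3 of 8, Get1 (0.29 to 0.59), Vps26c (0.33 to 0.61) and C2cd2 (0.27 to 0.62). For Tmem50b, Dop1b, Ttc3 and Hunk the interval lay below 0.585 in both regions, with upper ends of 0.56, 0.56, 0.55 and 0.56 in cortex and 0.49, 0.51, 0.48 and 0.53 in hippocampus, and for Psmg1 it lay below in hippocampus only, with an upper end of 0.43. These intervals use all 11 animals, and none was computed without animals 60 and 64. Without them the cortical differences (± SE) were 0.47 ± 0.0746 for Get1, 0.48 ± 0.0408 for Vps26c, 0.52 ± 0.0605 for C2cd2 and 0.45 ± 0.0908 for Psmg1. In hippocampus they were 0.51 ± 0.055 for Get1, 0.50 ± 0.0341 for Vps26c and 0.41 ± 0.0556 for C2cd2. Each SE was smaller than with all animals, so which intervals hold 0.585 may depend on these animals. Array signal need not be proportional to RNA amount, and this scale was not calibrated here.

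**Figure D2:**
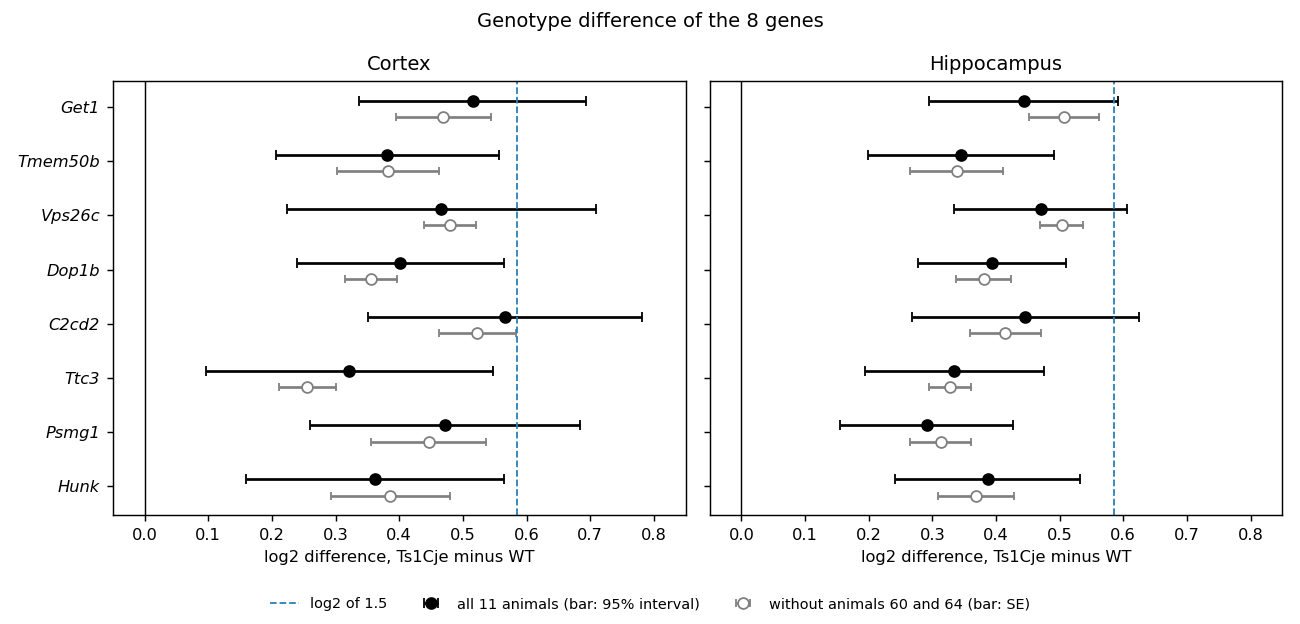
Difference in log2 signal, Ts1Cje minus WT, for each gene in cortex (left) and hippocampus (right); filled points with 95% intervals use all 11 animals, open points with SE bars leave out animals 60 and 64, and the dashed line is the log2 of 1.5. All 16 filled points lie between 0.29 and 0.57, to the left of the line, and the open points stay near them.

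Averaging the 2 regions of each animal gave 1 value per animal, and Get1, Tmem50b and Dop1b rose on that scale, 3 of 8 where 0.0544% of all genes were called higher. Get1 averaged 10.73 ± 0.0709 in Ts1Cje and 10.25 ± 0.114 in WT (SD, n = 6 and 5), a difference of 0.48 ± 0.0600 (SE, adjusted p = 0.0156). Dop1b averaged 9.79 ± 0.0536 in Ts1Cje and 9.39 ± 0.106 in WT, a difference of 0.40 ± 0.0549 (adjusted p = 0.0301). Tmem50b, called in neither region alone, averaged 11.85 ± 0.0718 in Ts1Cje and 11.48 ± 0.0721 in WT, a difference of 0.36 ± 0.0510 (adjusted p = 0.0301). The other 5 had differences of 0.33 to 0.51 with adjusted p of 0.0866 for C2cd2, 0.0991 for Vps26c, Psmg1 and Hunk, and 0.585 for Ttc3. All 8 genes had every Ts1Cje animal above every WT animal in these means (background 0.316%), and all 8 were called without animals 60 and 64 (background 0.232%). Calls again depended on single animals: with animal 64 left out 6 were called (background 0.153%), with animal 60 left out 3 (background 0.0593%) and with animal 95 left out 1 (background 0.00988%), and with any of the other 8 animals (61, 62, 63, 65, 87, 94, 97 or 98) left out 0.

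The genotype difference was then compared between the regions, as the hippocampal difference minus the cortical one. No member passed the test (adjusted p = 1 for all 8 in limma), and among all genes 0 of 20239 did (0% called), with 260 at an unadjusted p under 0.05. Psmg1 had the largest value, -0.18 ± 0.115 (unadjusted p = 0.129), with a 95% interval of -0.42 to 0.06. The intervals of the other genes were -0.39 to 0.15 for C2cd2, -0.29 to 0.15 for Get1, -0.25 to 0.18 for Tmem50b, -0.26 to 0.27 for Vps26c, -0.19 to 0.17 for Dop1b, -0.24 to 0.27 for Ttc3 and -0.21 to 0.26 for Hunk. Intervals of these widths do not show that the regions responded alike. The SE behind them was 0.0876 (Dop1b) to 0.129 (C2cd2). With the animal as a fixed block it was 0.0698 (Dop1b) to 0.106 (Tmem50b), and 0.0924 for Psmg1. With that block 0 members and 0 of all genes were called.

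Within each Ts1Cje animal the 8 genes stood on the same side. All 8 were above the WT mean of the region on every Ts1Cje array, 6 of 6 in cortex and 6 of 6 in hippocampus. WT arrays had from 1 (cortex of animal 60) to 7 (cortex of animal 62) of the 8 above that mean in cortex. In hippocampus they had from 3 (animals 60 and 62) to all 8 (animal 95), so this trait was not confined to Ts1Cje arrays. Its share over all genes was not computed. The mean shift of the 8 genes ranged over 0.33 (animal 64) to 0.49 (animal 63) in Ts1Cje cortex, against -0.18 (animal 60) to 0.09 (animal 62) in WT cortex. In hippocampus it ranged over 0.28 (animal 64) to 0.46 (animal 94) in Ts1Cje, against -0.06 (animal 60) to 0.07 (animal 95) in WT. Animal 64 had the smallest mean shift of its genotype in both regions, but not for every gene: in its cortex Psmg1 stood 0.69 above the WT mean and Vps26c 0.05.

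**Figure D3:**
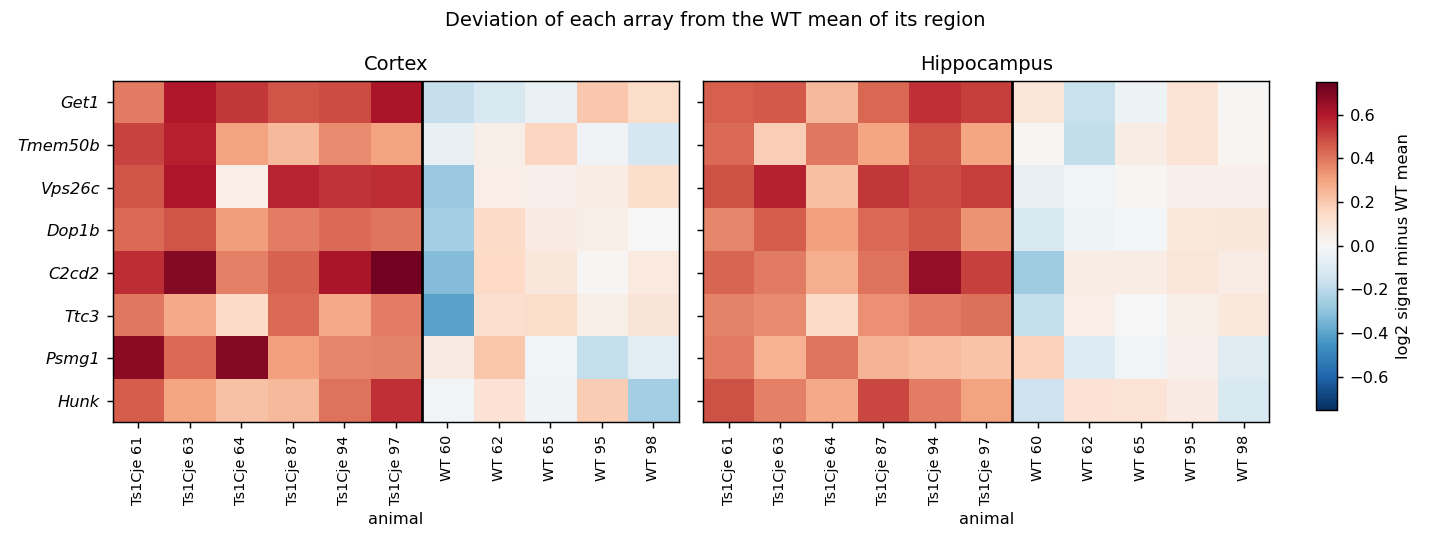
Each array's log2 signal minus the WT mean of its region (colour scale, log2 units) for the 8 genes (rows) and 11 animals (columns), with the 6 Ts1Cje animals left of the 5 WT animals in cortex and in hippocampus. All Ts1Cje squares are above 0, the palest being Vps26c in the cortex of animal 64 at 0.05, and the deepest WT square below 0 is Ttc3 in the cortex of animal 60 at -0.405.

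Correlations between pairs of the 8 genes across arrays were higher with the genotype difference left in than with it taken out. With each gene centred on its mean within a region, Pearson's r over the 22 arrays was above 0 for 28 of 28 pairs, with a median of 0.808 and a range of 0.527 to 0.955. With each gene centred on its mean within genotype and region, r was above 0 for 21 of 28 pairs, with a median of 0.301 and a range from -0.583, for Vps26c with Psmg1, up to 0.809, for Dop1b with Ttc3. Without animals 60 and 64 that median was 0.0788 over 18 arrays and 16 of 28 pairs were above 0. These correlations describe arrays that share animals and array-wide deviations, and carry no test.

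Along the segment the 8 genes lay at ranks 2 (Hunk), 18 (Tmem50b), 39 (Dop1b), 47 (Ttc3), 48 (Vps26c), 54 (Psmg1), 57 (Get1) and 72 (C2cd2) of 73 measured genes, counted onward from Sod1. Their median difference was 0.43 in cortex and 0.39 in hippocampus, while the other 65 segment genes had a median of 0.26 in both. Of these others, 49 of 65 were above 0 in cortex and 63 of 65 in hippocampus, and all genes tested had medians of -0.00337 and -0.00637. By mean signal the 8 genes lay at percentiles 55 (C2cd2) to 99.2 (Tmem50b) of all genes tested, and the others at 6.57 (Mx1) to 99.9 (Pcp4). The others thus included dim genes, and the part of signal level in this contrast was not tested. In order of size among the 73 in cortex, C2cd2 was at place 3, Get1 at 6, Psmg1 at 18 and Vps26c at 19. Dop1b was at 29, Tmem50b at 34, Hunk at 36 and Ttc3 at 38. In hippocampus the order was Vps26c at 2, C2cd2 7, Get1 8, Dop1b 17, Hunk 19, Tmem50b 26, Ttc3 29 and Psmg1 36. Of the 65 others, 0 were called in cortex and 14 in hippocampus, and without animals 60 and 64 these counts were 24 and 20. The members were picked by name with earlier results of these arrays known, so their place in this order is a description.

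Neighbours of the 8 genes covered a wide range of values. Get1, with differences of 0.52 in cortex and 0.44 in hippocampus, lies between Hmgn1 (0.19 and 0.19) and Lca5l (-0.03 and 0.11). Lca5l was dim, at percentile 18.4 of mean signal among all genes tested, where Get1 was at 95 and Hmgn1 at 73. C2cd2 lies between Prdm15 (0.26 and 0.14) and Zbtb21 (0.18 and 0.23), both with smaller differences than its 0.57 and 0.45. Ttc3 and Vps26c are adjacent, with Pigp (0.22 and 0.19) before them and the kinase gene Dyrk1a (0.25 and 0.34) after them. Psmg1 sits between Ets2 (0.56 and 0.44) and Brwd1 (0.45 and 0.41), both above its own hippocampal value of 0.29. Tmem50b has Ifngr2 (0.50 and 0.35) and Dnajc28 (0.51 and 0.33) beside it, Dop1b has Cbr3 (0.38 and 0.10) and Morc3 (0.48 and 0.46), and Hunk has Scaf4 (0.24 and 0.36) and Mis18a (0.45 and 0.29). Of these neighbours that are not members, Dyrk1a, Ets2, Brwd1 and Scaf4 were called in hippocampus (adjusted p = 0.0209, 0.0462, 0.0214 and 0.0462) and none in cortex.

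**Figure D4:**
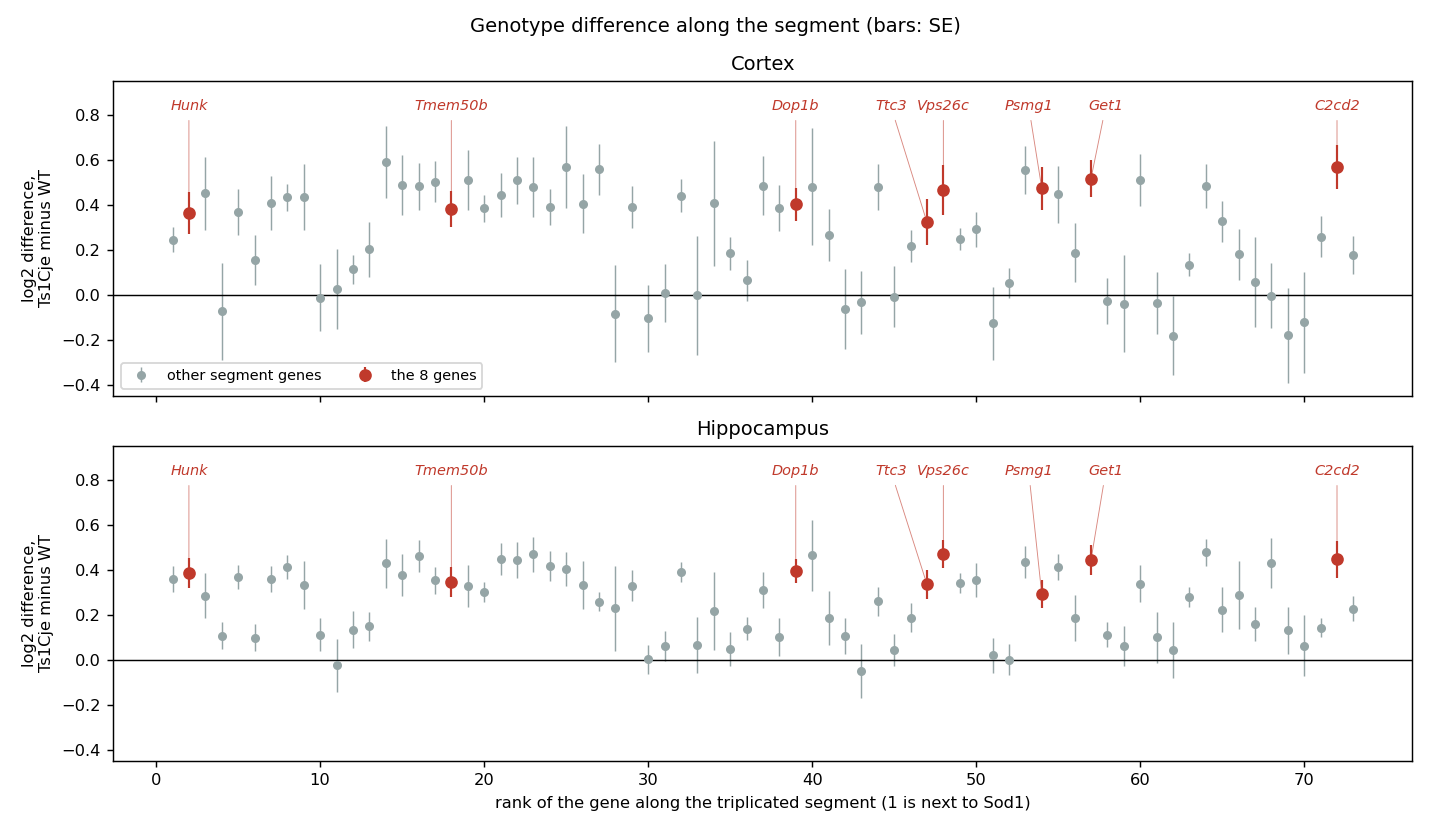
Difference in log2 signal, Ts1Cje minus WT, with SE bars (vertical axis) against the rank of each of 73 measured genes along the triplicated segment, in cortex (top) and hippocampus (bottom); the 8 genes are named and larger. In cortex they lie between 0.32 and 0.57 and the other 65 between -0.18 and 0.59, and in hippocampus they lie between 0.29 and 0.47 and the others between -0.05 and 0.48.

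The partners of the 8 genes that are present in the usual number of copies did not pass the test. Camlg and Get3, which work with Get1, had differences of 0.10 ± 0.187 and -0.03 ± 0.0792 in cortex and -0.03 ± 0.108 and -0.04 ± 0.0551 in hippocampus. Vps35l and Vps29, the retriever partners of Vps26c, had 0.11 ± 0.124 and 0.06 ± 0.138 in cortex and 0.01 ± 0.0897 and 0.04 ± 0.105 in hippocampus. Mon2, the partner of Dop1b, had -0.02 ± 0.0722 in cortex and -0.04 ± 0.0521 in hippocampus. Psmg2, which pairs with Psmg1, had 0.14 ± 0.204 in cortex and -0.06 ± 0.137 in hippocampus, and Pomp, which acts with them on the proteasome core, had 0.09 ± 0.180 and -0.09 ± 0.120. Akt1, a kinase that Ttc3 acts on, had 0.01 ± 0.0794 in cortex and -0.07 ± 0.0531 in hippocampus. In cortex the SE of Camlg, Vps29, Psmg2 and Pomp was 0.138 to 0.204, and the 95% interval ran over -0.31 to 0.51 for Camlg and -0.31 to 0.58 for Psmg2. Without animals 60 and 64 these 4 values were 0.01 ± 0.0356, 0.06 ± 0.0395, 0.14 ± 0.0776 and 0.06 ± 0.0524. The direction of several of these small values turned when a single animal was left out.

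Paralogs outside the segment, Vps26a, Vps26b, Dop1a and C2cd2l, gave 0.11 ± 0.174, -0.01 ± 0.0606, -0.02 ± 0.121 and 0.08 ± 0.0823 in cortex. In hippocampus they gave -0.01 ± 0.0542, -0.02 ± 0.0414, -0.04 ± 0.0641 and -0.06 ± 0.0789, and none was called (adjusted p = 1 for each in cortex and 0.9996 in hippocampus). By comparison, Vps26c, Dop1b and C2cd2 on the segment stood at 0.47, 0.40 and 0.57 in cortex and 0.47, 0.39 and 0.45 in hippocampus. Tmem50a, the paralog of Tmem50b, was not analysed here.

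The wider pathways were followed through 13 lists, of which 140 of 151 genes were measured. In every list 0 genes were called in cortex, in hippocampus, in the mean of both regions or in the difference between regions, also without animals 60 and 64. At an unadjusted p under 0.05 there was 1 list gene in cortex and 4 in hippocampus, and of all genes 263 and 750. Over all list genes the median difference was 0.03 in cortex, with 105 of 140 above 0, and -0.02 in hippocampus, with 45 of 140 above 0, while 48.5% and 46.3% of all genes were above 0. The proteasome assembly list, partners of Psmg1, had a median of 0.11 in cortex (5 of 7 above 0) and -0.09 in hippocampus (1 of 7 above 0). Proteasome core and regulatory particle genes had medians of 0.04 and 0.03 in cortex (10 of 13 and 16 of 17 above 0) and -0.02 and -0.03 in hippocampus (3 of 13 and 3 of 17 above 0). The retriever, CCC, WASH and retromer list, around Vps26c, had medians of 0.05 (18 of 25 above 0) and -0.01 (10 of 25 above 0) in the 2 regions, and the GET list, around Get1, had -0.01 and -0.04 (1 of 6 above 0 in each).

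Tail-anchored proteins, the class to which the clients of Get1 belong, had medians of 0.05 in cortex (14 of 16 above 0) and -0.01 in hippocampus (5 of 16 above 0). The Dopey and Mon2 list had -0.02 and -0.04 (1 of 4 above 0 in each), lipid transfer genes had 0.02 and -0.02 (6 of 9 and 2 of 9 above 0), and genes linked to Ttc3 had 0.03 and 0.01 (5 of 5 and 3 of 5 above 0). AMPK-related kinases, the relatives of Hunk, had 0.03 and -0.03 (12 of 16 and 6 of 16 above 0). Unfolded protein response genes had 0.03 and -0.02 (11 of 14 and 5 of 14 above 0), and cytosolic heat shock chaperones had 0.04 and 0.03 (6 of 8 and 5 of 8 above 0). The 5 list genes with an unadjusted p under 0.05, named here after their values were seen, were Stim1 (0.21 in cortex) and Psmg3 (-0.14), Psmg4 (-0.16), Psmd11 (-0.31) and Stk11 (-0.11) in hippocampus, each with an adjusted p near 1. Without animals 60 and 64 several list medians had the opposite sign, namely in cortex those of the GET list (0.02), lipid transfer genes (-0.02), regulatory particle genes (-0.00116) and paralogs (-0.00711). In hippocampus they were those of tail-anchored proteins (0.00968), the retriever list (0.01) and unfolded protein response genes (0.01). Without these animals the cortical medians were also smaller for proteasome assembly (0.06), the retriever list (0.02) and unfolded protein response genes (0.00346), and over all list genes the medians were 0.02 in cortex and -0.00933 in hippocampus.

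**Figure D5:**
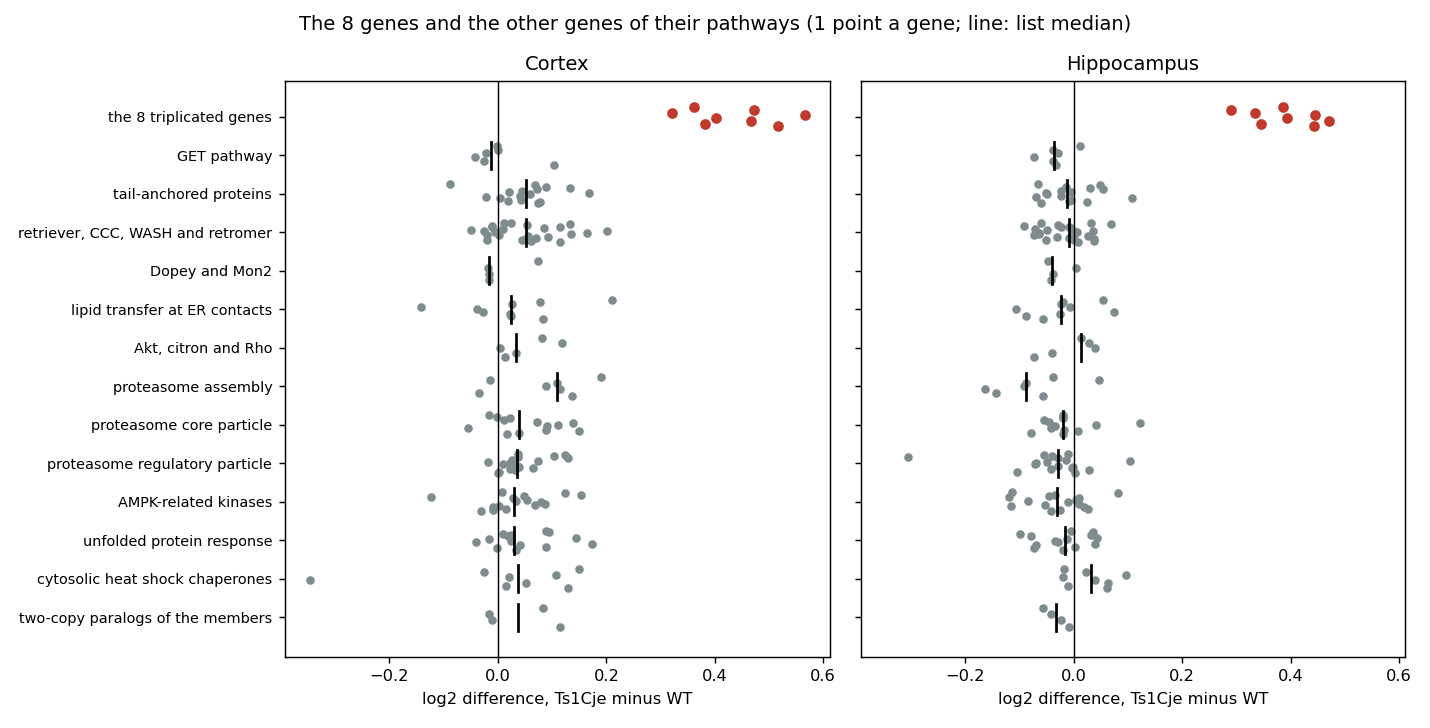
Difference in log2 signal, Ts1Cje minus WT (horizontal axis), for the 8 genes (top row, red) and for the measured genes of 13 pathway lists (grey, 1 point a gene, bar at the list median) in cortex (left) and hippocampus (right). The 8 genes lie at 0.29 or above, and the list genes, between -0.35 and 0.21, scatter around 0.

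The regions themselves were compared as hippocampus minus cortex over both genotypes, with each array centred on its median, since array medians were 6.91 to 6.95 in hippocampus and 7.53 to 7.62 in cortex and the regions had been extracted with different kits. Hunk rose in hippocampus relative to cortex, by 0.49 ± 0.0568 (SE, adjusted p = 4.05e-07), and was higher in 11 of 11 animals, by 0.30 to 0.71. Psmg1 fell by 0.21 ± 0.0574 (adjusted p = 0.00564) and was lower in hippocampus in 9 of 11 animals. These 2 of 8 stand against 41.4% of all genes called. Get1 was 0.13 higher in hippocampus (10 of 11 animals, adjusted p = 0.0517, and 0.0118 with the animal as a random block), and the other 5 lay between -0.11 and 0.05 with adjusted p of 0.195 to 0.923. With the animal as a fixed block 5 of 8 were called, where 54% of all genes were: Hunk, Psmg1, Get1, C2cd2 (-0.11, adjusted p = 0.0283) and Ttc3 (-0.11, adjusted p = 0.0382). Without animals 60 and 64 the count was 6 of 8 (65.5% of all genes): Hunk, Psmg1, Get1 (0.12, adjusted p = 0.0283), Vps26c (-0.13, adjusted p = 0.000297), C2cd2 (-0.12, adjusted p = 0.0157) and Ttc3 (-0.14, adjusted p = 0.000284). Without centring all 8 genes, Hunk included, had lower values in hippocampus, with differences of -0.14 for Hunk to -0.85 for Psmg1. Region and extraction kit cannot be told apart in this design. The dissections also differed in markers of other tissue. The choroid plexus markers Ttr, Kcnj13, Folr1 and Otx2 were 2.96, 2.47, 1.87 and 1.75 higher in hippocampus. The striatal markers Drd1, Drd2 and Ppp1r1b differed by -1.63, -2.71 and -1.70. The part of tissue makeup in the region differences of the 8 genes was not tested.

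Most of the genes that followed the 8 across arrays lie on the segment. With each gene centred within region, the 5 genes outside the set most like the mean of the 8 over 22 arrays were Synj1 (r = 0.979), Rcan1 (0.95), Dscam (0.949), Gart (0.941) and Ets2 (0.935), all on the segment, and 34 of the 50 most like genes were on it. Taken singly, Get1, Dop1b and C2cd2 were most like Synj1 (r = 0.921, 0.965 and 0.951), Vps26c was most like Ifnar1 (0.982), Ttc3 most like Cryzl1 (0.976), Tmem50b most like Smim11 (0.873) and Hunk most like Dyrk1a (0.866). Psmg1 was the exception, being most like Dnah11 (0.824), an axonemal dynein gene that is not on the segment and had the highest difference of all genes tested, 2.88 in cortex and 3.12 in hippocampus. The genotype difference was left in, so a gene that is higher in Ts1Cje follows the 8 by construction. Likeness with genotype taken out was not computed for these genes. The arrays share animals and genotype, so these values are given without a test.

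No cell type marker was called between genotypes, in 38 measured of 44 sought. In hippocampus, where 3 of the 8 genes were called, the 4 choroid plexus markers had a median difference of -0.21 (0 of 4 above 0), with mean log2 signals of 9.48 to 10.2 in Ts1Cje and 9.73 to 10.2 in WT. Medians of the other marker lists in hippocampus lay between -0.11, for ependymal cells, and 0.15, for the single haemoglobin gene measured. In cortex that gene had 0.31. The other cortical medians lay between -0.07, for ependymal cells, and 0.12, for striatal neurons (3 of 3 above 0), with oligodendrocytes at 0.11 (2 of 3 above 0). The part of cell makeup in the differences of the 8 genes was not tested.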

How the data were processed

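The deposited table holds log2 signals of 21225 features that the authors made with RMA, per the submitters' processing notes; no source used here gives its version or the probe mapping. Each feature carries an Entrez gene number, and 20239 had 1 symbol in the platform annotation, 986 had none and 0 had several. Groups and animal numbers came from the sample titles; on 2 arrays the title gives WT animal 60 and the description a WT animal 61, a number that a Ts1Cje animal bears in both fields. Genotypes were compared within each region, in animal means and between regions by lmFit and eBayes of limma (3.58.1, run in R 4.3.3), with Benjamini-Hochberg adjustment over all 20239 genes and an adjusted p under 0.05 as threshold. The number of arrays limits the precision. The code was tested on simulated data with independent noise on each array. Those data had no correlation within animals and no arrays that stood apart, so they do not cover these features of the real arrays.

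The members and lists were chosen with earlier results of these data known, and animals 60 and 64 were known to stand apart. The 8 members, their direct partners, paralogs and nearest measured neighbours were named whatever they showed, list genes only where called or stated otherwise, and for likeness the 5 genes with the highest Pearson r. Lists covered the GET pathway, tail-anchored proteins, retriever and retromer, Dopey and Mon2, lipid transfer, genes linked to Ttc3, proteasome assembly, core and regulatory particles, AMPK-related kinases, the unfolded protein response, heat shock chaperones and paralogs. Camlg stands under its older symbol Caml in the annotation.

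Titles give the same animal numbers in both regions, and cortex and hippocampus were paired by animal on that ground. Deviations of the 2 arrays of an animal from their group means correlated with a median r of 0.265 (0.0523 to 0.761). The own partner was the best match for only 2 of 11 animals, so the pairing rests on the titles. A block for the animal was an alternative (consensus correlation 0.436). Other alternatives were array weights, quantile normalization, centring, filters, thresholds and left-out animals.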

Additional observations from a re-analysis of the deposited data

Results flagged for a closer look

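In 6 of 32 groups of arrays (8 genes, 2 regions, 2 genotypes) 1 array stood far below the others, by Dixon's test at the 95% level. Chance alone passes that level in about 1 group in 20. The 8 genes were read on the same arrays, so these groups are not independent and their count is not a test against that share. All 6 were arrays of animals 64 or 60, the 2 animals whose arrays had a narrower spread of signal over all features. For Vps26c, the Ts1Cje cortex of animal 64 read 9.04, against 9.46 to 9.59 on the other 5, the WT cortex of animal 60 read 8.71, against 9.02 to 9.12 on the other 4, and the Ts1Cje hippocampus of animal 64 read 8.50, against 8.75 to 8.85. Ttc3 read 11.1 in the Ts1Cje hippocampus of animal 64, against 11.3 to 11.4 on the other 5, and 11.3 in the WT cortex of animal 60, against 11.8 to 11.9 on the other 4. C2cd2 read 6.71 in the WT hippocampus of animal 60, against 7.04 to 7.07. The part of RNA quality in these values was not tested.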

How the results depend on the processing

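All 512 values of the 8 genes in the genotype comparisons under the alternatives stayed above 0 (0.22 to 0.604), and with 1 animal left out the members' median was 0.382 to 0.459 in cortex, 0.356 to 0.409 in hippocampus and 0.377 to 0.410 in the mean of both. The number of members called moved far more. In cortex, where it was 0, it was 7 with array weights, 3 with quantile normalization, 3 without animals 60 and 64, 6 in a fit of all 22 arrays with no replicate block and 5 with a random replicate block for the animal, and 0 with any 1 animal left out. In hippocampus, where it was 3, it was 5 with a trended robust prior, 7 with array weights, 5 with quantile normalization, 6 without animals 60 and 64, and 0 to 6 with 1 animal left out; the replicate block gave 4. In the mean of both, where it was 3, it was 8 with array weights, 5 with quantile normalization, 7 without the dimmest genes, 7 at an adjusted p under 0.1, 8 without animals 60 and 64 and 0 to 6 with 1 animal left out. Between regions, where it was 2 (41.4% of all genes called), it was 5 with the animal as a fixed replicate block (54%). It was 4 with quantile normalization (9681 of 20239 genes) and 6 without animals 60 and 64 (65.5%). With values as deposited it was 8 (19285 genes), and with 1 animal left out 2 to 3 (7378 to 9723 genes). For the difference of the genotype effect the number of members called was 0 throughout. The cause of these shifts was not tested. Counts over all genes at the same genotype settings follow, and the member counts are to be read beside them.

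Over all genes, calls in cortex numbered 1, against 50 with array weights, 32 without animals 60 and 64, 23 in the fit of all 22 arrays with or without the block, 13 with quantile normalization, and 1 to 7 with 1 animal left out. In hippocampus they numbered 23, against 54, 37 and 1 to 35 for array weights, without animals 60 and 64, and 1 animal left out. With a trended robust prior they were 26, with quantile normalization 25 and with the replicate block 18. In the mean of both they numbered 12, against 68, 52, 30 and 27 for array weights, without animals 60 and 64, quantile normalization and without the dimmest genes. They were 26 at an adjusted p under 0.1 and 1 to 33 with 1 animal left out. Between regions they numbered 8379, against 19285 with values as deposited and 13253 without animals 60 and 64.

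Apart from region differences with values as deposited, no value that had passed the test turned its sign. In cortex Akt1 was -0.0594 with array weights, -0.0256 with quantile normalization and -0.056 without animals 60 and 64. In hippocampus Vps35l was -0.00168 with array weights, -0.011 without animals 60 and 64 and -0.00656 with the animal number series as covariate, and Vps26a was 0.0355, 0.0129, 0.00704 and 0.0418 with array weights, quantile normalization, centring and without animals 60 and 64. For the difference of the genotype effect, Dop1b was 0.0568 with quantile normalization, 0.0248 without animals 60 and 64 and 0.0149 with centring, Ttc3 -0.0148 with quantile normalization, and Get1 0.0375 and Hunk -0.0174 without animals 60 and 64. Between regions Tmem50b was -0.04 with quantile normalization and Dop1b -0.0117 without animals 60 and 64, and with values as deposited Get1, Tmem50b, Dop1b and Hunk were -0.495, -0.579, -0.623 and -0.141. With 1 animal left out, cortical values ran over -0.0861 to 0.204 for Camlg, -0.0815 to 0.0188 for Get3, -0.0104 to 0.166 for Vps35l, -0.0416 to 0.162 for Vps29, -0.061 to 0.0205 for Mon2, -0.01 to 0.288 for Psmg2, -0.0613 to 0.211 for Pomp, -0.0564 to 0.057 for Akt1, -0.0666 to 0.191 for Vps26a, -0.047 to 0.0115 for Vps26b and -0.115 to 0.0629 for Dop1a. Hippocampal values ran over -0.0991 to 0.0542 for Camlg, -0.0598 to 0.00155 for Get3, -0.0672 to 0.0636 for Vps35l, -0.0311 to 0.117 for Vps29, -0.157 to 0.048 for Psmg2, -0.154 to 0.0101 for Pomp and -0.0254 to 0.0187 for Vps26a. The difference of the genotype effect ran over -0.0929 to 0.0356 for Tmem50b, -0.0306 to 0.0581 for Vps26c, -0.0532 to 0.0246 for Dop1b, -0.0197 to 0.0692 for Ttc3 and -0.0206 to 0.0798 for Hunk, and the region difference of Dop1b over -0.0139 to 0.0316.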
